A study of Mus musculus with 4 samples.

Results

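Slc2a1, Hk1, Hk2, Pfkl, Pfkp, Pgk1, Pkm, Ldha, Ldhb and Pdha1 carry glucose into a cell, break it down to pyruvate and pass the pyruvate to lactate or to the mitochondrion. These 10 genes were chosen by name as glycolysis and pyruvate use genes, with earlier results of these data known. A probe was taken for one of them when its transcript accession on the array belonged to that gene. All 10 were measured, among 12792 named genes that stood clear of background in each mouse of the vehicle group, the AP group or both, and all 14 of their probes were well above background on all 4 arrays.

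The tissue was brown adipose tissue (BAT) of transgenic (Tg) male mice, 8 weeks of age, of a line on a C57/BL6N background. All 4 mice carried Fv2E-PERK, the eIF2α kinase domain of PERK joined to an artificial dimerization domain, driven by the mouse aP2 (Fabp4) promoter, which is active in adipocytes and also in monocytes and macrophages. The AP group (2 mice) received an intraperitoneal injection of the dimerizer AP20187 (AP), given in the labels as 1 ng/g, and the vehicle group (2 mice) received ethanol, PEG-400 and Tween-20 in water. BAT was taken 12 h later and 1 one-color array was hybridized for each mouse. The dose in the study's text for this experiment differs from that in the labels, and no array of a wild-type mouse given AP was analysed here, so AP alone and AP acting through the transgene cannot be told apart.

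Glycolysis starts with a glucose transporter and a hexokinase, is gated at phosphofructokinase, and yields ATP at the steps of phosphoglycerate kinase and pyruvate kinase. Lactate dehydrogenase then interconverts pyruvate and lactate, while the pyruvate dehydrogenase complex turns pyruvate into acetyl-CoA inside the mitochondrion. Brown adipocytes take up much glucose when they make heat, through the insulin-responsive transporter encoded by Slc2a4 and also through the one encoded by Slc2a1, and use part of it to build fat. In the integrated stress response (ISR), phosphorylation of eIF2α lowers general translation and raises that of the transcription factor ATF4.

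The stretches just upstream of the genes' starts are given first, because several of these genes share a short motif there that the choice of the genes did not use. In the 250 bases before each listed start (RefSeq, GRCm38.p6, all 10 genes matched, 13 windows), ACGTG, the core that hypoxia-inducible factors bind, was found on either strand in windows of 5 of the 10 genes (Slc2a1, Hk2, Pgk1, Pkm and Ldha), against 18.5% of the 27025 genes with windows. CACGTG, the E-box, which contains ACGTG and so overlaps it, was found in 1 of the 10, Ldha, against 6.86% of genes. TGATGNAAT, an element at which ATF4 binds with C/EBP proteins, was found in none of the 10 genes, against 0.910% of genes. At so low a share, its absence from 10 genes says little. The 5 windows that hold ACGTG are printed from 5′ to 3′, with ACGTG, or CACGT where it lies on the other strand, in capitals. The window of Pkm is the one before the downstream of its 2 listed starts, and that of Ldha the one before the upstream of 2.
Slc2a1 (chr4:119108495-119108744, plus strand): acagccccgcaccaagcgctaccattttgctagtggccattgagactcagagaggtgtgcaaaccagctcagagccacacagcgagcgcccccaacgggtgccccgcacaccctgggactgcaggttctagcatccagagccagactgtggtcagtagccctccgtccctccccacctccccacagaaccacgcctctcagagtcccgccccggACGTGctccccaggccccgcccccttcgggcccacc
Hk2 (chr6:82774455-82774704, minus strand): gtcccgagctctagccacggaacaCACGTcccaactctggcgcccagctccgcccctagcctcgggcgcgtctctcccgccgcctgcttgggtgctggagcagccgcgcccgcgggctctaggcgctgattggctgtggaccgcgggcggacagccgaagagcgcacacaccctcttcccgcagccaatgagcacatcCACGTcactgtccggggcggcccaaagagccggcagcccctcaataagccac
Pgk1 (chrX:106186850-106187099, plus strand): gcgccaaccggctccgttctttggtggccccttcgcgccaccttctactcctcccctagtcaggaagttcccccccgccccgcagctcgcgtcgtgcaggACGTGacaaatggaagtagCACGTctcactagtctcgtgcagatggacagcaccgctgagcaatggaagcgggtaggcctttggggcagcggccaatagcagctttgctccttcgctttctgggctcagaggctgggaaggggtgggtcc
Pkm (chr9:59656977-59657226, plus strand): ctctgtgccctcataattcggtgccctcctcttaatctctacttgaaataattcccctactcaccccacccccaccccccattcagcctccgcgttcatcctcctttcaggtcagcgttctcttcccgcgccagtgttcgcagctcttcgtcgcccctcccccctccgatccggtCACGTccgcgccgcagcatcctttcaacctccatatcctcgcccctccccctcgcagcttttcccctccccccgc
Ldha (chr7:46845554-46845803, plus strand): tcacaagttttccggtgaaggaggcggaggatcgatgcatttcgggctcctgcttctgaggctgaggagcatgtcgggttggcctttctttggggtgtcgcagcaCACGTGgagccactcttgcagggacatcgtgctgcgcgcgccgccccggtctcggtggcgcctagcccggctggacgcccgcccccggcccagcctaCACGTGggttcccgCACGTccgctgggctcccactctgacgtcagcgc
Slc2a1 and Pkm each hold 1 such stretch, at 36 and 75 bases before the start, Hk2 and Pgk1 hold 2 each, and Ldha holds 3, of which both longer ones are E-boxes. These windows are rich in G and C, from 61.6% in Pkm to 69.6% in Hk2, and a match to letters is not a binding site.

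Signals are given on a log2 scale on which 0 is the 75th percentile of the array, and differences are AP minus vehicle on the same log2 scale. Levels of the 10 genes come from different probes and were not set against each other. No probe passed an adjusted p of 0.05 in limma with Benjamini-Hochberg adjustment (0.0% of 24975, smallest adjusted p = 0.80), while 1515 (6.07%) had an unadjusted p under 0.05. For none of the 10 genes was a difference called, therefore, and words such as higher and lower describe the 4 values only. The vehicle arrays and the AP arrays lay at different positions of 1 slide, so position and treatment cannot be told apart.

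Markers of other cell types differed widely between the arrays. All 16 skeletal muscle genes were highest in vehicle replicate 2 and lowest in vehicle replicate 1, and their summed linear signal, in units of the 75th percentile, was 103.4, 1314, 827.9 and 483.4 in vehicle 1, vehicle 2, AP 1 and AP 2. Ckm, the muscle creatine kinase, had values of 0.03, 4.14, 3.43 and 2.43 in the same order, Tnnc2 3.91, 8.03, 7.42 and 6.71, and Myh4 3.84, 7.83, 7.58 and 6.63. All 9 leukocyte genes measured, H2-Ab1 and Cd74 among them, were highest in vehicle 2 (summed signal of 32.3, 119.7, 39.6 and 37.0), and all 6 erythroid genes, Hba-a2 and Hba-a1 among them, were highest in vehicle 1 (summed signal of 2390, 1489, 1273 and 1716). Of the BAT genes, Ucp1, the uncoupling protein of brown fat, was at 10.41, 9.66, 9.66 and 10.25, and Adipoq, the gene of adiponectin, at 8.37, 8.44, 8.06 and 8.16. Others, named after their values were seen, varied more, with the fatty acid elongase Elovl3 at 6.08, -1.07, 3.52 and 5.76 and the deiodinase Dio2 at 0.49, 1.53, -1.78 and 3.33. For the 13 BAT genes, Cidea and Fabp4 among them, the summed signal was 9060, 6050, 7360 and 8297. Of 7 ISR genes, all had a higher mean with AP, with a median difference of AP minus vehicle of 2.26. All 7 were highest in AP replicate 2, as were 21.5% of all named genes. Both AP mice lay above both vehicle mice in 5 of the 7, against 20.1% of all named genes. Trib3 was at 2.78 and 2.33 in the vehicle mice and 6.26 and 8.01 in the AP mice, and Ddit3 at 2.18 and 1.86 against 3.03 and 4.22. Atf4 had 7.49 and 6.12 in the vehicle mice against 7.26 and 8.23 in the AP mice, and Asns, asparagine synthetase, had 5.49 and 4.79 against 5.86 and 6.76. In a bulk sample, fewer cells of a type and less RNA per cell cannot be told apart.

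Across the 10 genes, 9 had a lower mean with AP and 1, Slc2a1, a higher one, with a median difference of -0.33, whereas 48.6% of all named genes had a lower mean and their median difference was 0.01. In 4 genes (Hk1, Hk2, Pgk1 and Pkm) both AP mice lay below both vehicle mice, which held for 17.3% of all named genes, and in 1 gene (Slc2a1) both AP mice lay above both vehicle mice, which held for 20.1%. Of the 10 genes, 1 (Pkm, lower) had an unadjusted limma p under 0.05, against 6.04% of named genes, 2.26% with a lower and 3.78% with a higher mean. Groups were apart in either direction in 5 of the 10, against 37.4% of named genes. Of the 10 genes, 0 passed the adjusted threshold. The genes share the 4 mice, so these counts are not counts of independent tests. The genes were also chosen with earlier results of these data known, so the counts describe this list only. Without vehicle replicate 1 the median difference was -0.03.

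**Figure D1:**
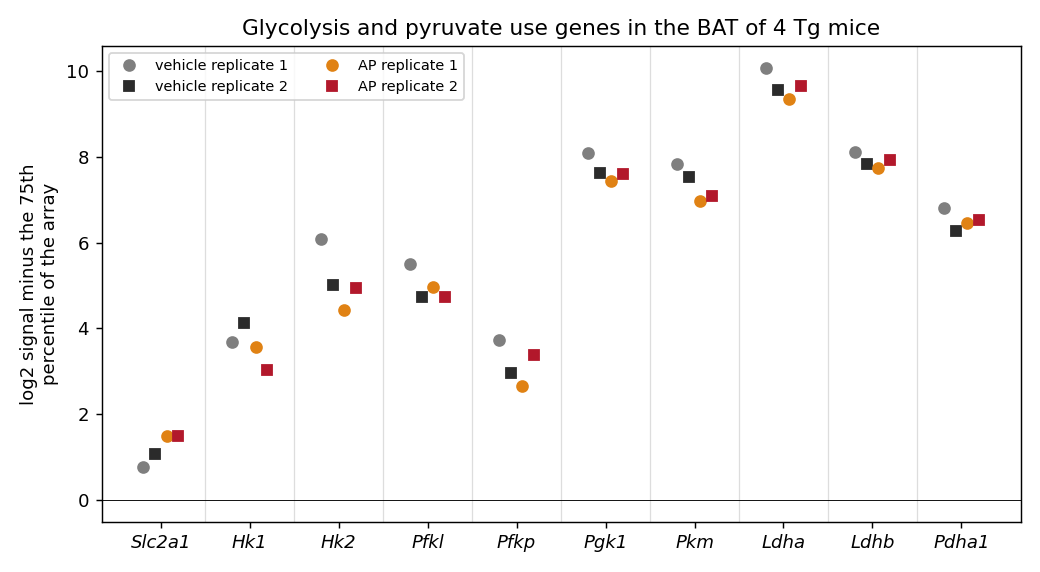
Log2 signal minus the 75th percentile of the array for the brightest probe of each of the 10 genes, with 1 point for each of the 4 Tg mice (2 vehicle, 2 AP). In 8 of the 10 genes the highest point is vehicle replicate 1. Slc2a1 is the 1 gene with both AP points above both vehicle points.

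Slc2a1 encodes GLUT1, a glucose transporter that works without insulin. Its signal was 0.78 and 1.08 in the vehicle mice and 1.48 and 1.50 in the AP mice. The AP mice were nearly equal, and the lower of them was 0.40 above the higher vehicle mouse. The difference was 0.56 (SE 0.22, 1.47-fold, 95% interval -0.03 to 1.15, limma adjusted p = 0.80), and the exact two-sided permutation test gave p = 0.333, the smallest value that 2 against 2 mice allow. It remained above 0 without any one mouse, from 0.41 without vehicle replicate 1 to 0.71 without vehicle replicate 2. It was the 1 gene of the 10 with its lowest value in vehicle replicate 1.

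Hexokinase traps glucose in the cell as glucose 6-phosphate, and Hk1 and Hk2 encode the forms that sit on mitochondria, Hk2 being the insulin-responsive one of muscle and fat. The signal of Hk1 was 3.69 and 4.13 in the vehicle mice and 3.56 and 3.03 in the AP mice, a difference of -0.62 (SE 0.30, 95% interval -1.42 to 0.19, limma adjusted p = 0.80). The groups were apart by 0.13, which was less than the gap between the vehicle mice. A dimmer second probe of Hk1 differed by -0.48, and on it the groups overlapped. The signal of Hk2 was 6.09 and 5.01 in the vehicle mice and 4.43 and 4.94 in the AP mice. Its difference of -0.86 (SE 0.44, 0.550-fold, 95% interval -2.03 to 0.30, limma adjusted p = 0.80) was the largest in size of the 10 genes, yet vehicle replicate 1 stood 1.07 above vehicle replicate 2, and the groups were apart by only 0.07. The difference of Hk2 was -0.33 when vehicle replicate 1 was left out and -1.40 when vehicle replicate 2 was. The exact permutation p was 0.333 for Hk1 and for Hk2.

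Phosphofructokinase commits the sugar to glycolysis. Pfkl encodes its liver-type subunit and Pfkp its platelet-type subunit. The signal of Pfkl was 5.51 and 4.73 in the vehicle mice and 4.97 and 4.74 in the AP mice, and that of Pfkp was 3.74 and 2.97 against 2.67 and 3.39. In both genes the groups overlapped. The differences were -0.26 (SE 0.33, 95% interval -1.14 to 0.62) for Pfkl and -0.33 (SE 0.40, 95% interval -1.39 to 0.74) for Pfkp, each with a limma adjusted p of 0.88. Without vehicle replicate 1 both turned slightly positive, at 0.13 and 0.06, and Pfkp was at 0.03 without AP replicate 1. A second probe of Pfkp differed by -0.11.

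Pgk1 encodes phosphoglycerate kinase, the enzyme of the earlier ATP-yielding step, and Pkm encodes the muscle-type pyruvate kinase, the enzyme of the last step. The signal of Pgk1 was 8.10 and 7.63 in the vehicle mice and 7.43 and 7.60 in the AP mice. The groups were apart by 0.03 and the vehicle mice by 0.47, and the difference was -0.35 (SE 0.26, 95% interval -1.03 to 0.33, limma adjusted p = 0.82). The signal of Pkm was 7.83 and 7.53 in the vehicle mice and 6.98 and 7.09 in the AP mice. Here the groups were 0.44 apart, more than the 0.30 between the vehicle mice and the 0.11 between the AP mice. The difference of Pkm was -0.64 (SE 0.22, 0.641-fold, 95% interval -1.23 to -0.05), with a limma p of 0.039 before adjustment and 0.80 after adjustment over all probes. The difference of Pkm ranged from -0.79 to -0.49 when each mouse was left out in turn, and it was -0.49 without vehicle replicate 1. The exact permutation p was 0.333 for Pgk1 and for Pkm. Pkm gives rise to the M1 and M2 forms by splicing, and the form or forms that its probe detects were not determined.

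Ldha and Ldhb encode the subunits of lactate dehydrogenase. The signal of Ldha was 10.08 and 9.57 in the vehicle mice and 9.36 and 9.65 in the AP mice, a difference of -0.32 (SE 0.28, 95% interval -1.06 to 0.42, limma adjusted p = 0.84). The signal of Ldhb was 8.11 and 7.82 in the vehicle mice and 7.73 and 7.93 in the AP mice, a difference of -0.14 (SE 0.23, 95% interval -0.75 to 0.47, limma adjusted p = 0.91). In both genes the AP values spanned the lower vehicle value. The other probes of Ldha differed by -0.38 and -0.41. Without vehicle replicate 1 the differences were -0.07 for Ldha and 0.01 for Ldhb.

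Pdha1 encodes the catalytic E1 alpha subunit of the pyruvate dehydrogenase complex. Its signal was 6.82 and 6.26 in the vehicle mice and 6.46 and 6.53 in the AP mice, so that both AP mice lay between the vehicle mice. The difference was -0.04 (SE 0.27, 95% interval -0.76 to 0.67, limma adjusted p = 0.98), the smallest in size of the 10 genes. Its sign turned with each array scaled to its median (0.05) and without vehicle replicate 1 (0.23).

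**Figure D2:**
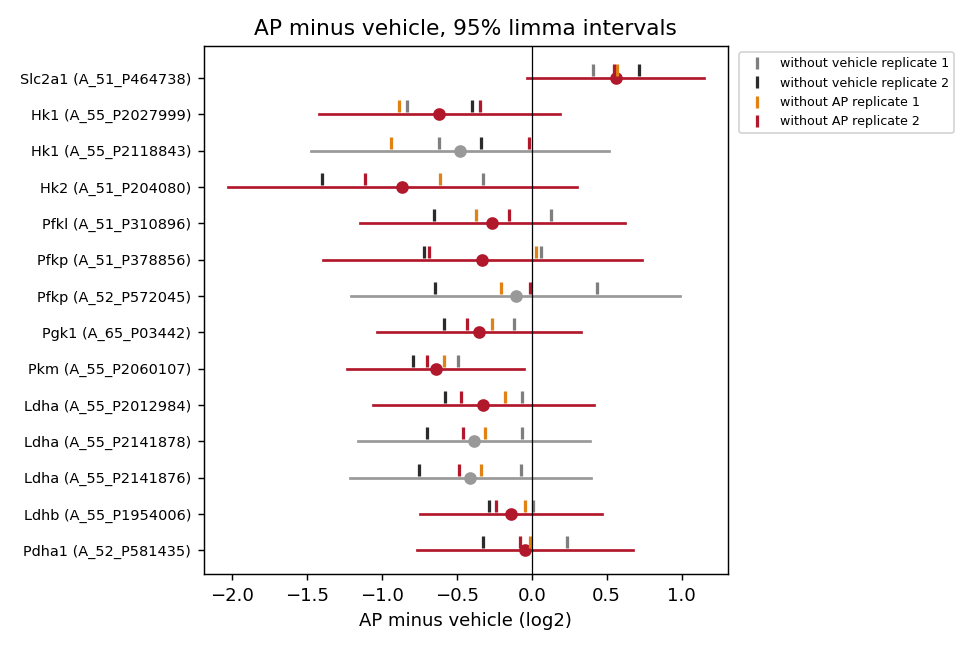
Difference of AP minus vehicle (log2) for the 14 probes of the 10 genes, with the 95% limma interval as a line, in red for the brightest probe of a gene and gray for its other probes, and ticks for the difference without each mouse. The interval of Pkm is the 1 interval that lies wholly on one side of 0. For the brightest probes of Slc2a1, Hk2, Pfkl, Pgk1, Pkm, Ldha and Ldhb, the gray tick, without vehicle replicate 1, is the one nearest to 0.

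Isozymes were compared within each mouse, by the difference of their log2 differences, with 3 pairs in all. For Hk2 against Hk1 the value was -0.25 (exact permutation p = 0.667), and it ran from -1.002 to 0.51 as each mouse was left out. For Pfkp against Pfkl the value was -0.07 (exact permutation p = 1), and for Ldha against Ldhb it was -0.18 (exact permutation p = 0.333, the smallest possible). The last pair kept its sign without any one mouse, from -0.29 to -0.07. None of the 3 could reach 0.05 with 2 mice a group, and no preference for one isozyme over its partner was detectable.

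The vehicle mice differed from each other in most of these genes. In 8 of the 10 genes (80%) the highest value was in vehicle replicate 1, as in 28.3% of all named genes, and in 6 (60%) the lowest was in AP replicate 1, as in 24.2%. The median over the 10 genes of the deviation from the gene's mean was 0.41 in vehicle 1, -0.10 in vehicle 2, -0.21 in AP 1 and -0.05 in AP 2. The gap between the vehicle mice, from 0.29 in Ldhb to 1.07 in Hk2, was smaller than the difference between the groups in 3 genes (Slc2a1, Hk1 and Pkm) and larger in 7. By summed signal, vehicle replicate 1 was also the mouse with the least muscle and the most erythroid and brown adipose signal, with values given above. Single BAT genes were mixed, as 7 of the 13 were highest in this mouse (28.3% of all named genes were) and 2 were lowest (18.9%). The part of these cell types in the differences was not tested.

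**Figure D3:**
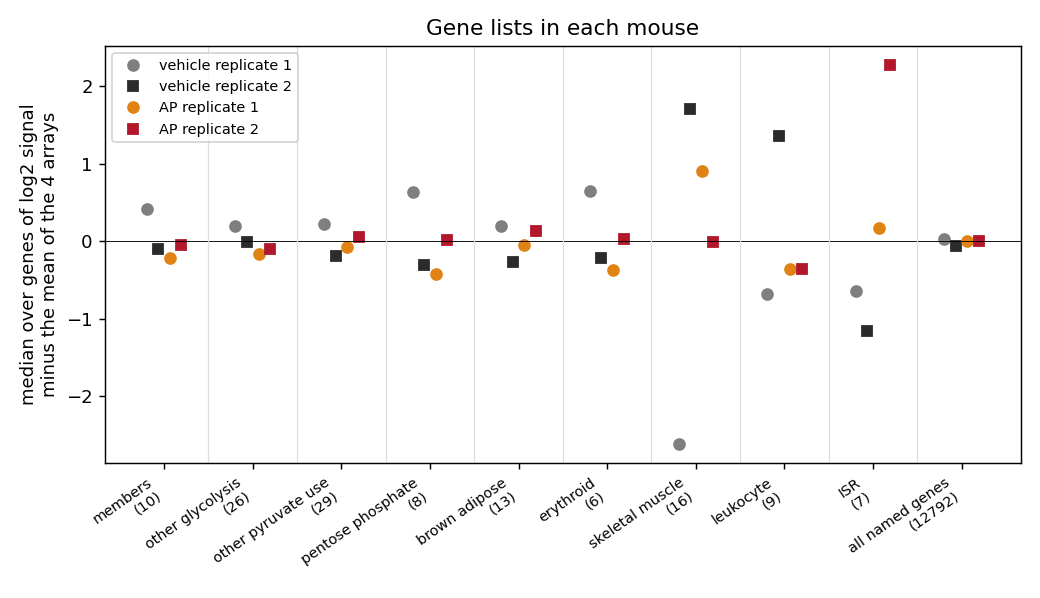
Median over the genes of each list of the log2 signal minus its mean over the 4 arrays, with 1 point for each mouse and the number of genes in parentheses. The 10 genes are highest in vehicle replicate 1 (0.41), where the skeletal muscle list is lowest (-2.62).

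The rest of the glycolytic pathway was read in the same way, from 29 further genes, of which 26 were measured. Of these, 18 had a lower mean with AP (48.6% of all named genes did) and 8 a higher one, the median difference was -0.22, none had an unadjusted limma p under 0.05, and 0 passed the adjusted threshold. Both AP mice lay below both vehicle mice in 7 (Gpi1, Tpi1, Gapdh, Pgam1, Eno1, Pfkfb2 and Pfkfb4), against 17.3% of all named genes, and above them in 2 (Slc2a3 and Pfkfb3), against 20.1%. Except for Gapdh and Pfkfb3, these were named after their values were seen. Glucose 6-phosphate isomerase (Gpi1) had a signal of 9.52 and 8.91 in the vehicle mice and 8.49 and 8.68 in the AP mice, and enolase 1 (Eno1) had 9.63 and 9.20 against 8.70 and 8.96. Gapdh, the dehydrogenase ahead of Pgk1 and often used to scale other genes, had 10.51 and 10.16 against 9.93 and 9.93, a difference of -0.40 (SE 0.23), and its probes differed by -0.61 to -0.26.

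Among the genes around the entry of glucose, Slc2a4, which encodes GLUT4, had a signal of 8.35 and 7.61 in the vehicle mice and 7.04 and 8.09 in the AP mice, so that the groups overlapped (-0.42, SE 0.47). Slc2a3, which encodes GLUT3, was dim but above background, at -2.52 and -2.26 against -1.85 and -1.91, a difference of 0.51 (SE 0.22). Slc2a8, a further transporter gene named after its values were seen, had overlapping groups (0.08, SE 0.26). Slc2a1 and Slc2a3 were the transporter genes with groups apart, both higher with AP, which held for 20.1% of all named genes. Pfkm, the muscle-type phosphofructokinase, had 4.31 and 4.88 against 4.55 and 4.38 (-0.13, SE 0.28). Pfkfb3, which makes fructose 2,6-bisphosphate, the activator of phosphofructokinase, had 5.42 and 5.63 in the vehicle mice against 6.11 and 6.03 in the AP mice, a difference of 0.54 (SE 0.21, limma adjusted p = 0.80), while Pfkfb4, of the same family, had 0.91 and 1.15 against 0.22 and 0.63 (-0.61, SE 0.25). The muscle isozymes, also named after their values were seen, had the order of the muscle list, Pgam2 being at 0.33, 4.33, 3.09 and 2.23 and Eno3 at 2.22, 5.67, 4.89 and 4.14 in vehicle 1, vehicle 2, AP 1 and AP 2.

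The genes that use pyruvate, lactate or phosphoenolpyruvate did not lean one way. Of 30 further genes, 29 were measured, 15 with a lower and 14 with a higher mean with AP, and their median difference was -0.01. Both AP mice lay below both vehicle mice in 4 (Slc16a1, Dlat, Me3 and Gpt, named after their values were seen) and above them in 2 (Pck1 and Gpt2), again against 17.3% and 20.1% of all named genes. The largest difference was in Pck1, the cytosolic phosphoenolpyruvate carboxykinase, which leads out of the citric acid cycle towards glyceride-glycerol in fat. Its signal was 7.12 and 7.97 in the vehicle mice and 9.19 and 8.70 in the AP mice, a difference of 1.40 (SE 0.38, 2.64-fold, limma adjusted p = 0.80), which ran from 0.97 to 1.83 when each vehicle mouse was left out. Pck1 was the 1 gene of both further lists with a difference of at least 2-fold and its groups apart. Pck2, the mitochondrial form, was well above background in 3 of the 4 mice, with -3.63 and -2.82 against -2.26 and -2.88 (0.66, SE 0.39).

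Of the genes that carry pyruvate or lactate across membranes, Mpc1 and Mpc2, the mitochondrial pyruvate carrier, differed by 0.06 and 0.07 (SE 0.43 and 0.48), with both AP mice inside the range of the vehicle mice. Slc16a1, which encodes the lactate and pyruvate transporter MCT1, had -1.59 and -1.73 in the vehicle mice against -2.76 and -2.19 in the AP mice (-0.82, SE 0.28). Gpt2, the mitochondrial alanine aminotransferase, which interconverts pyruvate and alanine, had -0.14 and 0.08 against 0.75 and 0.80 (0.81, SE 0.21). Slc16a1 and Gpt2 were named after their values were seen, and with Pck1 they were the 3 genes of this list with an unadjusted limma p under 0.05 (6.04% of all named genes had one), of which 0 passed the adjusted threshold. Pdk4, the kinase that switches off pyruvate dehydrogenase, had 5.98 and 6.65 against 7.99 and 6.51 (0.94, SE 0.57), highest in AP replicate 1, with AP replicate 2 between the vehicle mice. Pcx, the pyruvate carboxylase, had 7.82 and 7.24 against 7.10 and 7.52 (-0.21, SE 0.31).

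**Figure D4:**
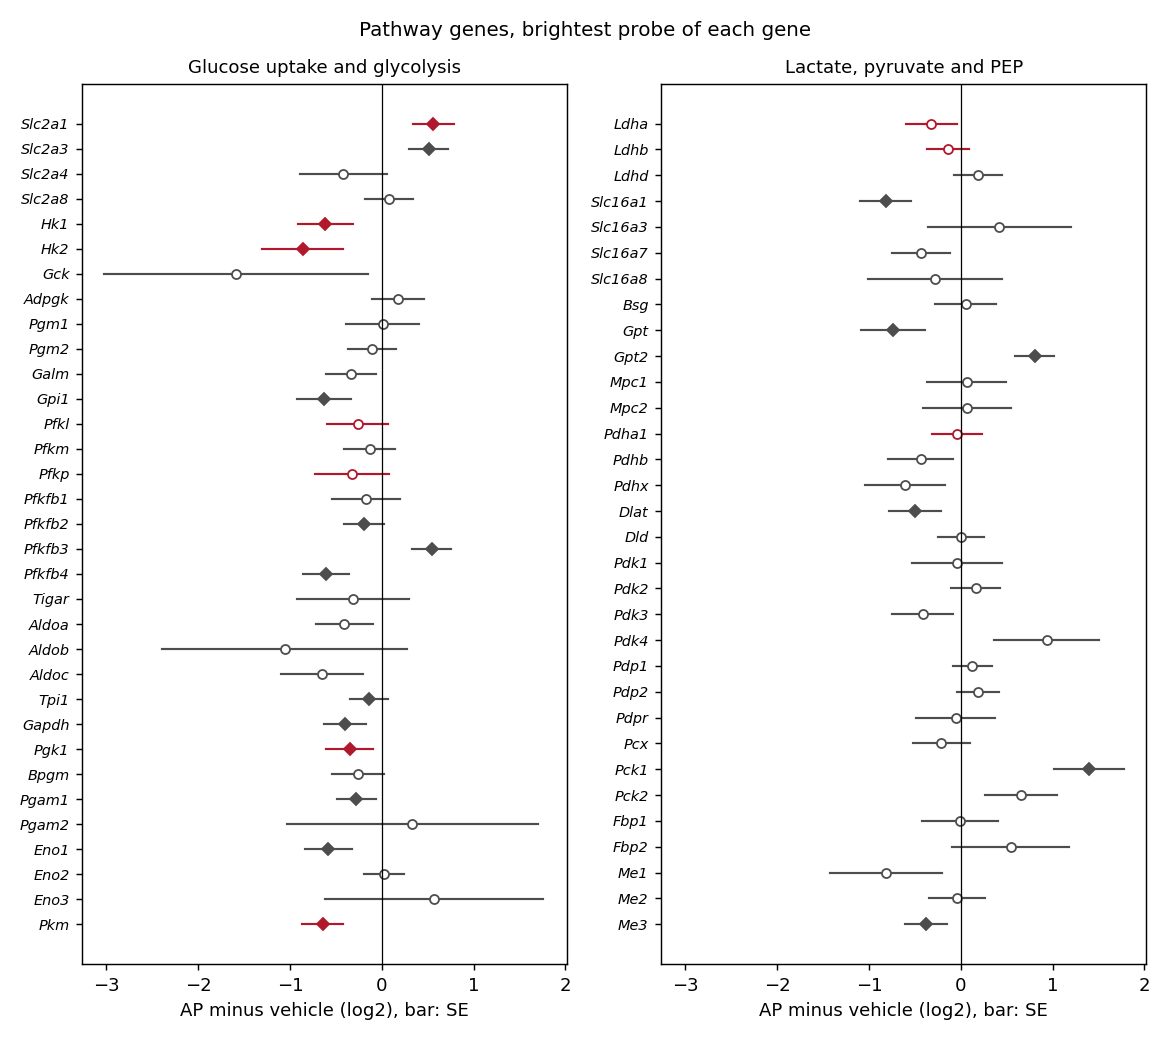
Difference of AP minus vehicle (log2), with its limma SE as a bar, for the brightest probe of each gene measured, the 10 chosen genes in red. Filled diamonds mark genes with both AP mice on one side of both vehicle mice, and open circles the rest. Most filled diamonds of glycolysis lie left of 0, those of Slc2a1, Slc2a3 and Pfkfb3 lie right of it, and Pck1 lies furthest to the right.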

How the data were processed

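RNA of BAT from 4 mice was labeled with Cy3 and hybridized to one-color Agilent SurePrint G3 Mouse arrays. Per the labels, the authors extracted the scans with Agilent Feature Extraction 10.7.1.1, and the deposited intensity of each spot is on a linear scale, background-subtracted and not normalized between arrays. A second table that the authors deposited holds log2 values of the same arrays (29061 probes matched), with a normalization not given in the sources used here. Its differences between arrays correlated with those of the intensities with a lowest r of 0.999, and its column medians were -0.28, -0.16, -0.44 and -0.29, while the value its probes are centred on is unknown.

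Log2 processed signal minus the 75th percentile of the array was computed, without control spots and outlier flags, and spots of 1 probe were averaged. Between 46.4 and 49.0% of spots were well above background and 0 were saturated; precision is limited by the number of arrays. Kept were 24975 of 55681 probes, those well above background in both arrays of a group. Symbols came from a RefSeq table (GRCm38.p6) through the accessions, and gave 1 gene for 26582 probes, several for 0 and none for 29099. The brightest probe stood for a gene. Probe sequences were not used here, so whether a probe also detects processed pseudogenes, which Gapdh, Pgk1 and Ldha have, was not tested.

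AP was compared with vehicle in limma 3.58.1, run in R 4.3.3 with lmFit and eBayes (two-sided, Benjamini-Hochberg over all probes kept, threshold 0.05). The same steps were also run on values simulated from these arrays with known changes added, with results not reported here. Single values were compared with an exact permutation test. The p-values measure the spread between these samples. Replicate numbers are not stated to pair the mice, and deviations of mice with the same number correlated at -0.13, so no block was used. With 2 mice a group, this correlation cannot show whether mice were paired. The vehicle arrays correlated at 0.972 and the AP arrays at 0.981. The 10 genes and the lists were chosen with earlier results of these data known. Named are all 10, those of the other glycolysis and pyruvate use genes at least 2-fold apart with groups that do not overlap, a preset handful of well-known genes, the markers of highest signal in each list, and others marked as chosen afterwards. A further glycogen gene was left out of that list and is not reported here. Other background corrections, scalings, filters, a variance trend, the authors' table, the mean over probes, the methods' test, the block and leaving out each mouse were tried.

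Of the other marker lists, the median deviations in vehicle 1, vehicle 2, AP 1 and AP 2 were -0.10, 1.39, -0.54 and -0.45 for 5 white adipose genes (Retn and Nnat among them), -0.21, 0.59, 0.00 and -0.40 for 7 macrophage genes (Itgam, Csf1r) and -0.09, 0.17, 0.02 and -0.10 for 6 endothelial genes (Kdr, Cdh5).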

Additional observations from a re-analysis of the deposited data

How the results depend on the processing

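With 2 mice a group, 0 probes passed the adjusted limma threshold under every alternative run, and the count at an unadjusted p under 0.05 was 1515, from 1226 to 2613 over the alternatives (2613 without the filter on dim probes) and from 1003 to 2178 with 1 mouse left out. The lone mouse of a group was then assumed to vary like the other group. The filters, the variance trend, the block and the t-test leave the difference of a gene as it is, and so does the mean over probes for a gene with 1 probe. Of the other 43 values of the 10 genes under other settings, 42 kept their direction. The exception was Pdha1, at 0.047 with each array scaled to its median. With 1 mouse left out 35 of 40 kept it, the exceptions being Pfkl 0.13, Pfkp 0.060, Ldhb 0.0060 and Pdha1 0.23 without vehicle replicate 1, and Pfkp 0.03 without AP replicate 1. The ranges with 1 mouse left out were 0.41 to 0.71 (Slc2a1), -0.88 to -0.35 (Hk1), -1.40 to -0.33 (Hk2), -0.65 to 0.13 (Pfkl), -0.72 to 0.060 (Pfkp), -0.58 to -0.12 (Pgk1), -0.79 to -0.49 (Pkm), -0.58 to -0.07 (Ldha), -0.28 to 0.0060 (Ldhb) and -0.32 to 0.23 (Pdha1). The median of the 10 genes then ran from -0.58 to -0.030. Counts of the 10 genes with groups apart are not given for these fits, since 1 mouse against 2 is apart more easily.

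The authors' table lowers all probes (median -0.17, against -0.01), and with it 7 of the 10 genes were apart and lower and 1 higher, the other glycolysis genes had a median of -0.39 and 9 of the pyruvate genes were apart and lower. Scaling to the array median raises all probes (median 0.08), and then 3 of the 10 genes and 4 of the other glycolysis genes were apart and lower. The pyruvate genes then had a median of 0.082, and 4 of them were apart and higher, as with normexp (4). With normexp and with quantile normalization, 5 of the 10 genes were apart and lower, against 4 in the main setting. The share of all named genes with groups apart was not counted under these settings. Normexp used the median spot signal in place of the mean signal. For the fits with 1 mouse left out, given next, that share was not counted either. Their counts of genes apart cannot be set against the main setting, since 1 mouse against 2 is apart more easily. No conclusion is drawn from these counts. With 1 mouse left out, the other glycolysis genes had a median of -0.31 to -0.15, with 9 to 15 apart and lower and 3 to 6 higher, and the pyruvate genes a median of -0.23 to 0.23, with 6 to 17 apart and lower and 5 to 12 higher. The methods' t-test, run on the same values, gave 1478 probes under 0.05 and 0 after Benjamini-Hochberg adjustment. With the replicate number as a block, 1226 probes had an unadjusted p under 0.05 and no call changed. With the crossed pairing, added after seeing the data, 1566 did. A block for slide or scan was not run, since all arrays shared 1 slide and 1 scan.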

Other observations

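Pathways that branch from glycolysis were read from lists written after the values of the 10 genes were known, and 0 of their genes passed the adjusted limma threshold. All 8 pentose phosphate genes, which make NADPH and ribose from glucose 6-phosphate, were highest in vehicle replicate 1 (28.3% of all named genes were), and 5 of the 8 had a lower mean with AP (48.6% of all). Transketolase (Tkt) had a signal of 10.31 and 9.86 in the vehicle mice and 9.09 and 9.48 in the AP mice, a difference of -0.81 (SE 0.28), and was the 1 gene of the list with its groups apart. Pgd, the phosphogluconate dehydrogenase, spanned 4.66 to 7.29 and its groups overlapped.

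Of 11 glycogen genes, 6 had a lower mean with AP, near the share of all named genes. In 2 both AP mice lay below both vehicle mice (17.3% of all): Gys1, glycogen synthase (-0.35, SE 0.21), and Pygl, glycogen phosphorylase (-0.76, SE 0.36). The dimmer probe of Gys1 differed by only -0.05. Of 5 hexosamine genes, which lead from fructose 6-phosphate to UDP-N-acetylglucosamine, 4 had a higher mean with AP. Pgm3 (0.49, SE 0.24) and Uap1 (0.26, SE 0.20) had both AP mice above both vehicle mice (20.1% of all). The dimmer probe of Pgm3 went the other way, at -0.70, so the direction of Pgm3 depended on the probe. Of 9 genes of the shuttles that carry cytosolic NADH into mitochondria, 5 had a lower mean with AP and 4 a higher one. Among all named genes, 48.6% had a lower mean. Both AP mice lay below both vehicle mice in Gpd1 (-0.49, SE 0.28), Gpd2 (-0.45, SE 0.23) and Slc25a11 (-0.13), against 17.3% of all. In Gpd1l (0.42, SE 0.21), dim throughout, both AP mice lay above both vehicle mice, against 20.1% of all.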
